A study of Mus musculus with 6 samples.

Results

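The 7 genes described here make, break down, carry or sense gamma-aminobutyric acid (GABA), and all 7 of the named symbols were found among the 19938 genes measured. They were chosen by name: Gad1 and Gad2 for synthesis, Abat and Aldh5a1 for breakdown, Slc6a13 and Slc32a1 for transport and Gabbr1 for the receptor. Each was read by the single probeset that carries its symbol alone, a probeset being a set of probes on the array that gives 1 value. The measurements come from E14, an established line of mouse embryonic stem cells, cultured with leukemia inhibitory factor and serum on primary embryonic fibroblasts arrested with mitomycin C. One group was left untreated (control), one received 0.5 mM valproic acid (VPA) and one 0.2 mM sodium butyrate (NaBu), each for 16 h, with 2 samples per group. Both compounds are short-chain fatty acids that inhibit histone deacetylases, and their doses differed. All groups shared the line, the feeder cells and the medium, and the RNA is that of the whole culture.

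GABA is the main inhibitory transmitter of the brain. It is made from glutamate by the glutamate decarboxylases, loaded into vesicles, released, sensed by ion-channel (GABA-A) and G-protein-coupled (GABA-B) receptors, and taken up again by carriers of the plasma membrane. Its carbon returns to the citric acid cycle through the GABA shunt, in which a transaminase and a dehydrogenase convert it to succinate. Outside the nervous system the shunt works in liver, kidney and pancreas. Valproic acid is an old antiepileptic drug that has been described as a weak inhibitor of GABA breakdown enzymes, and GABA itself is butyric acid with an amino group.

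The series was designed to ask how low levels of the inhibitors alter expression in stem cells. Across all genes limma, which tests each gene with a spread steadied by the others, called 0 genes at an adjusted p under 0.05 for VPA (0.0% of 19938), for NaBu (0.0%) and between the compounds (0.0%), with 981, 311 and 724 at an unadjusted p under 0.05. The labels number the samples 1 and 2 in each group, and same-numbered arrays deviated together from their group means (r across genes 0.56 to 0.69), so the numbers are used as replicate set 1 and replicate set 2. With the set as a block in the model, 0 genes were called again in each comparison, while the counts at an unadjusted p under 0.05 were 2636, 916 and 2150. The labels do not say whether the samples were separate cultures, so every p-value measures only the spread between these samples. The 10 embryonic stem cell markers lay at mean log2 values from 7.96 (Fgf4) to 12.66 (Tdgf1) over the 6 arrays. Of the 12 feeder fibroblast markers, Vim was the highest at 12.05 and Lum the lowest at 3.19. Markers of neurons had a median gene level of 5.25, those of inhibitory neurons 4.29 and those of glia 4.01, but the neuronal gene Stmn2 lay at 10.82.

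Brightness differs between probesets for reasons other than RNA amount, so levels are compared here between samples of 1 gene and not between genes. As a guide to dim signal, the 1027 olfactory receptor genes, which are silent in most tissues, had a median log2 value of 2.94 and a 95th percentile of 4.07. Gad2 lay inside that range, with a mean of 3.51 over the 6 arrays and 16.5% of the olfactory genes above it. The other members lay above that percentile, at 4.56 for Slc6a13, 4.98 for Gad1, 5.20 for Slc32a1, 6.34 for Abat, 6.62 for Aldh5a1 and 7.29 for Gabbr1. Slc6a13, Gad1 and Slc32a1, like Gad2, lay under the median level of all genes, 5.77. No detection calls were used here.

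The 250 bases upstream of an annotated start are shown for 3 members, picked for their differences between conditions, none of which passed the test. Gabbr1 and Slc6a13 differed from control in opposite directions with VPA, and Aldh5a1 stood higher with NaBu. The sequences are those of RefSeq, build GRCm38.p6, printed 5′ to 3′ on the strand of the gene. Capitals mark the letters GGGCGG or, on the other strand, CCGCCC, a GC box. The Gabbr1 window is chr17:37045716-37045965 (plus strand), that of Slc6a13 is chr6:121300038-121300287 (plus strand, the outermost of its 3 annotated starts) and that of Aldh5a1 is chr13:24937662-24937911 (minus strand).
Gabbr1: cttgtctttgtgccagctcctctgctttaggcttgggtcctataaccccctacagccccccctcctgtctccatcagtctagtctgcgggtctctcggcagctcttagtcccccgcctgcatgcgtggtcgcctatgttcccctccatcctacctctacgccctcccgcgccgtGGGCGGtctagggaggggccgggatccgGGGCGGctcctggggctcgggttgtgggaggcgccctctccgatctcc
Slc6a13: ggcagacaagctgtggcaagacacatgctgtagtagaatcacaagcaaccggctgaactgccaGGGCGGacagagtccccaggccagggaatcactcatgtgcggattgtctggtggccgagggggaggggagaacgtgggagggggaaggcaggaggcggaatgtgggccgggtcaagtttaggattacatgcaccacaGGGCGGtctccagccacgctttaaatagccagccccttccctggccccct
Aldh5a1: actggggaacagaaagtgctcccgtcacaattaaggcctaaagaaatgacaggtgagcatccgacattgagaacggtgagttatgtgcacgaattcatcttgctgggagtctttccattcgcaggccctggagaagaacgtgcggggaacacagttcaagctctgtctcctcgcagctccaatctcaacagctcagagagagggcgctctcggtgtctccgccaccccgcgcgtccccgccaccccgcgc
The Gabbr1 and Slc6a13 windows each held 2 GC boxes and the Aldh5a1 window held 0, while 32.7% of 32851 annotated windows of this length held at least 1. They contained 16, 9 and 17 CpG dinucleotides in that order, against a median of 6 over all windows. The windows of the other annotated Slc6a13 starts held 0 GC boxes, with 6 and 2 CpG dinucleotides. Which of its starts is used in these cells was not tested. The letters TATAAA (on either strand) occurred in none of the 3 printed windows and in 12.4% of all. Of the 7 members, 6 had an entry and Abat had none. Gad1 and Gad2 had 17 and 13 CpG dinucleotides and Slc32a1 had 12. These letters describe the windows and do not show binding of any factor.

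Several of the genes for GABA handling stood slightly higher with VPA, and the receptor gene Gabbr1 stood lower, but no member passed the test. With VPA, 5 of the 7 members had a log2 difference above 0 (Gad1, Abat, Aldh5a1, Slc6a13 and Slc32a1), and each of these 5 lay above 0 in both replicate sets. Over all genes 32.0% did so. Gabbr1 lay below 0 in both sets, as did 28.0% of all genes, and Gad2 had opposite signs in the sets. The median of the 7 members was 0.19, beside 0.01 for all genes. None of the 7 had an unadjusted p under 0.05 in limma without the block (4.92% of all genes did). With NaBu, 4 of 7 lay above 0, beside 54.3% of all genes. Of these, 3 did so in both sets (Gad1, Aldh5a1 and Gabbr1), as did 29.1% of all genes, and Gad2 lay below 0 in both, as did 23.1%. The median was 0.08, beside 0.01 for all genes. None had an unadjusted p under 0.05 in that model with NaBu either (1.56% of all genes did), nor between the compounds (3.63%). With the replicate block Slc6a13 was higher and Gabbr1 lower with VPA at that level (7.21% and 6.01% of all genes). Aldh5a1 was higher with NaBu (2.4%). Against NaBu, Abat and Slc6a13 were higher with VPA (5.51%) and Gabbr1 lower (5.27%).

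**Figure D1:**
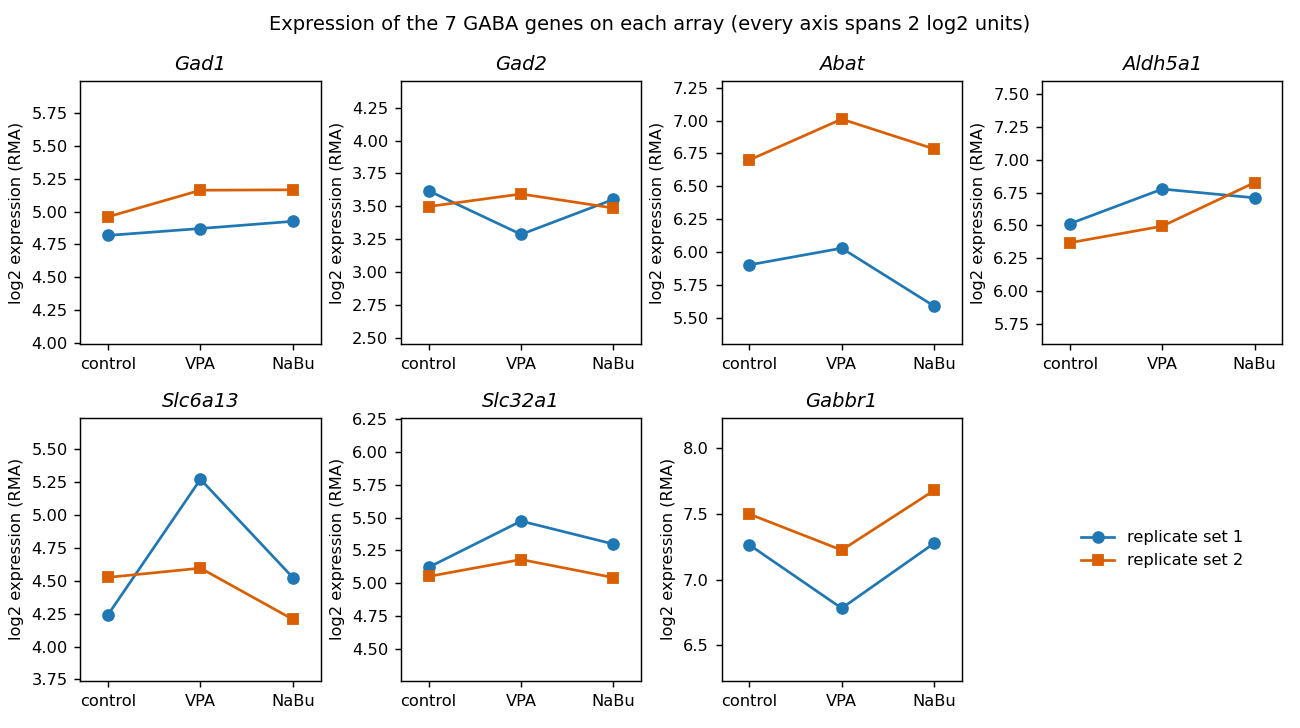
Log2 expression (RMA, vertical axis) of each member on the 6 arrays by condition, with lines joining the arrays of replicate set 1 (circles) and of replicate set 2 (squares). Abat shows the widest gap between the sets, Slc6a13 has 1 high VPA array at 5.27, and Gabbr1 is lowest with VPA in both sets.

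The enzymes of synthesis differed little between the conditions. Gad1 encodes the glutamate decarboxylase that makes most of the GABA in neurons, and Gad2 the form associated with synaptic vesicles. Gad1 had log2 values of 4.82 and 4.96 in control cells, 4.87 and 5.16 with VPA, and 4.93 and 5.17 with NaBu (set 1 and set 2). Within each set control was the lowest and the treated arrays lay above it, but the groups overlapped, since control replicate 2 lay above the first replicate of both compounds. The difference was 0.13 with VPA (95% interval -0.25 to 0.51) and 0.16 with NaBu (-0.22 to 0.53), and the order NaBu, VPA, control in the means held no step beyond the spread between replicates.

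Gad2 gave 3.62 and 3.50 in control cells, 3.29 and 3.59 with VPA, and 3.55 and 3.49 with NaBu. Apart from the low first VPA array the values lay between 3.49 and 3.62, and the groups overlapped. The VPA difference was -0.12 (95% interval -0.46 to 0.23), made of -0.33 in set 1 and 0.10 in set 2, and the NaBu difference was -0.04 (-0.39 to 0.31). The Gad2 signal lay within the olfactory receptor range, where a difference in RNA may not be detectable.

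In the breakdown steps Aldh5a1 stood higher with both compounds. It encodes succinic semialdehyde dehydrogenase, the last enzyme of the shunt, which makes succinate. Its log2 values were 6.51 and 6.37 in control cells, 6.78 and 6.50 with VPA, and 6.71 and 6.83 with NaBu. Both NaBu arrays lay above both control arrays, a pattern that 12.7% of all genes showed, whereas the second VPA array lay just under the first control array. The NaBu difference was 0.33 (95% interval -0.02 to 0.67), with 0.20 in set 1 and 0.46 in set 2, and limma gave an unadjusted p of 0.0611 and an adjusted p of 1.0. With the replicate block the interval was 0.03 to 0.62 (unadjusted p 0.0331 and adjusted p 0.994 in limma), and 2.4% of all genes were higher at an unadjusted p under 0.05 in that model. The VPA difference was 0.19 (95% interval -0.15 to 0.54), with 0.26 in set 1 and 0.13 in set 2. In the means the order was NaBu at 6.77 ± 0.08 (SD, n = 2), VPA at 6.64 ± 0.20 and control at 6.44 ± 0.10, and the steps next to each other were no larger than the spread of the VPA arrays.

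Abat, the mitochondrial transaminase that opens the shunt by taking the amino group from GABA, differed between the replicate sets far more than between the conditions. It had log2 values of 5.90, 6.03 and 5.59 in set 1 (control, VPA and NaBu) and of 6.70, 7.01 and 6.78 in set 2. All 3 arrays of set 2 lay above all 3 arrays of set 1, and VPA was the highest of the 3 in each set. The set difference was 0.80 in control cells, 0.98 with VPA and 1.19 with NaBu, and 0.532% of all genes were higher in set 2 by at least the smallest of these in every condition. The feeder fibroblast markers differed the same way, with a mean difference between the sets of 0.69, 1.01 and 0.92 over the 12 markers measured of 12, and the log2 of their summed signal ran from 12.88 to 13.23 in control, from 12.64 to 13.37 with VPA and from 12.80 to 13.47 with NaBu samples. The feeder marker Lum, at 3.19, lay in the range of the olfactory receptor genes. Marker lists of neurons, inhibitory neurons, neural progenitors, islet or endocrine cells and glia were also higher in set 2 in each condition, by 0.06 to 0.40. The embryonic stem cell markers differed between the sets by a mean of -0.23, -0.0025 and -0.27. In RNA of a whole culture, more cells of a type and more RNA per cell cannot be told apart, and the part of feeder RNA in the Abat signal was not tested.

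Beside the gap between the sets, the differences of Abat between conditions were small. The VPA difference was 0.22, with 0.13 in set 1 and 0.31 in set 2, and the interval of -0.999 to 1.44 in the model without a block narrowed to -0.07 to 0.51 with it. The NaBu difference was -0.11, with -0.31 in set 1 and 0.08 in set 2. VPA stood above NaBu by 0.44 in set 1 and by 0.23 in set 2, and with the replicate block this difference of 0.33 had an interval of 0.04 to 0.63 (unadjusted p 0.03 and adjusted p 0.429 in limma). In that model 5.51% of all genes were higher at an unadjusted p under 0.05.

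**Figure D2:**
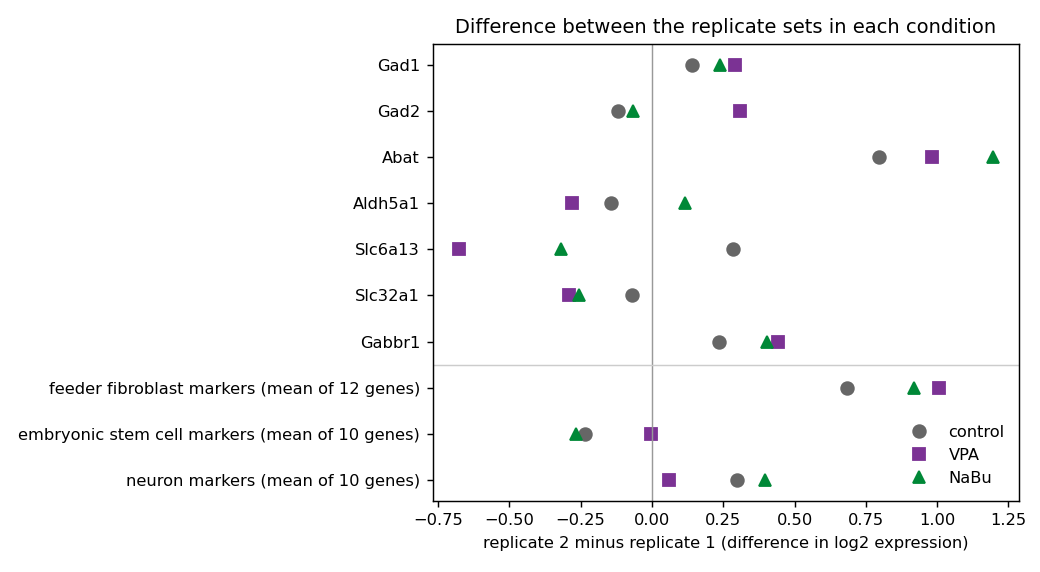
Difference in log2 expression between replicate 2 and replicate 1 (horizontal axis) in control, VPA and NaBu samples, for the 7 members and for the means of 3 marker lists. Abat (0.80 to 1.19) and the feeder fibroblast markers (0.69 to 1.01) lie farthest to the right.

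Of the other members, Gad1 and Gabbr1 were also higher in set 2 in all 3 conditions, as were 23.2% of all genes, and Slc32a1 was lower in all 3, as were 23.5%. The genes whose values followed Abat most closely over the 6 arrays, by root-mean-square distance after the mean of each gene was taken away, were Ier5, an immediate early gene (0.10), Cldn4, a tight junction claudin (0.10), and Edil3, a secreted matrix protein (0.11), beside a median distance of 0.53. Cldn4 had 9.14 and 10.18 in control, 9.49 and 10.52 with VPA and 9.06 and 10.13 with NaBu cells. These genes were picked for their closeness to Abat on the same 6 arrays, so a like gap between the sets follows from the choice.

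The carrier Slc6a13 had the largest difference of the 7 members with VPA. It is a sodium-coupled GABA transporter of the plasma membrane, known from liver, kidney and the coverings of the brain. Log2 values were 4.24 and 4.53 in control cells, 5.27 and 4.60 with VPA, and 4.52 and 4.21 with NaBu. Both VPA arrays lay above both control arrays, as in 19.1% of all genes, but the second did so by a small margin. The mean was 4.93 ± 0.48 (SD, n = 2) with VPA against 4.38 ± 0.20 in control cells, a difference of 0.55 (1.46-fold, 95% interval -0.06 to 1.15) with an unadjusted p of 0.0682 and an adjusted p of 0.964 in limma. Almost all of it came from set 1, where the difference was 1.03, against 0.07 in set 2, and the value was 0.21 without VPA replicate 1 and 0.89 without VPA replicate 2. With the replicate block the interval was 0.09 to 1.01 (unadjusted p 0.0257 and adjusted p 0.301 in limma), and 7.21% of all genes were higher at an unadjusted p under 0.05 there. In set 1 the feeder markers stood lower with VPA (list mean -0.18) and in set 2 higher (0.15), and the part of feeder RNA in this result was not tested.

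With NaBu the Slc6a13 difference had no steady direction, with 0.28 in set 1, -0.32 in set 2 and -0.02 in all (95% interval -0.62 to 0.59). Control and NaBu means therefore did not differ beyond their spread. The VPA arrays lay above the NaBu arrays, as in 16.0% of all genes, at different doses. The margin was again small, with 4.60 on the second VPA array and 4.52 on the first NaBu array. The gap between VPA and NaBu measured 0.75 in the first set and 0.39 in the second. The group difference was 0.57 (95% interval -0.04 to 1.17, adjusted p 0.998 in limma), and 0.23 without VPA replicate 1. The nearest patterns to that of Slc6a13 belonged to Vat1l (distance 0.06), the testis histone gene H2bc1 (0.10) and Clca1, a secreted regulator of chloride channels (0.10), beside a median distance of 0.37. Vat1l gave 4.86 and 5.20 in control, 5.79 and 5.10 with VPA and 5.07 and 4.77 with NaBu cells, and H2bc1 gave 8.30 and 7.66 with VPA against 7.34 and 7.53 in control cells. These genes share the high first VPA array, which follows from their choice by closeness to Slc6a13 on the same arrays.

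Slc32a1 encodes the carrier that loads GABA and glycine into synaptic vesicles. It had log2 values of 5.12 and 5.05 in control cells, 5.47 and 5.18 with VPA, and 5.30 and 5.04 with NaBu. Both VPA arrays lay above both control arrays, as in 19.1% of all genes, while the NaBu arrays lay on either side of them. The difference was 0.24 with VPA (95% interval -0.13 to 0.61, with 0.35 in set 1 and 0.13 in set 2) and 0.08 with NaBu (-0.29 to 0.46). In order VPA, NaBu and control had means of 5.33 ± 0.21, 5.17 ± 0.18 and 5.09 ± 0.05 (SD, n = 2), and neither step exceeded the spread of the treated arrays.

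Gabbr1 was the member that stood lower with VPA in both sets. It encodes the subunit of the GABA-B receptor that binds GABA and works in a dimer with the product of Gabbr2. The log2 values were 7.26 and 7.50 in control cells, 6.78 and 7.22 with VPA, and 7.28 and 7.68 with NaBu. Both VPA arrays lay below both control arrays and both NaBu arrays, as did 15.6% of all genes against control and 14.6% against NaBu. The VPA difference was -0.38 (1.3-fold lower, 95% interval -0.89 to 0.13), with -0.48 in set 1 and -0.27 in set 2, and limma gave an unadjusted p of 0.121 and an adjusted p of 0.964. With the replicate block the interval was -0.64 to -0.12 (unadjusted p 0.00977 and adjusted p 0.243 in limma), and 6.01% of all genes were lower at an unadjusted p under 0.05 there. Without VPA replicate 1 or 2 the difference was -0.16 or -0.60. The embryonic stem cell markers also stood lower, 9 of 10 of them with VPA in both sets, as did 28.0% of all genes. Their list means were -0.47 (set 1) and -0.24 (set 2), and their part in the Gabbr1 difference was not tested.

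With NaBu Gabbr1 did not differ beyond its spread, with a difference of 0.10 (95% interval -0.41 to 0.61), made of 0.01 in set 1 and 0.18 in set 2. Between the compounds, at their different doses, VPA stood lower by nearly the same amount in each set, -0.49 and -0.45. That difference of -0.47 had an interval of -0.98 to 0.04 without the block and of -0.73 to -0.21 with it (unadjusted p 0.00291 and adjusted p 0.362 in limma), where 5.27% of all genes were lower at an unadjusted p under 0.05. Control and NaBu means, 7.38 ± 0.17 and 7.48 ± 0.28 (SD, n = 2), were not separated. The partner subunit Gabbr2 had a VPA difference of 0.08 and a NaBu difference of 0.01.

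**Figure D3:**
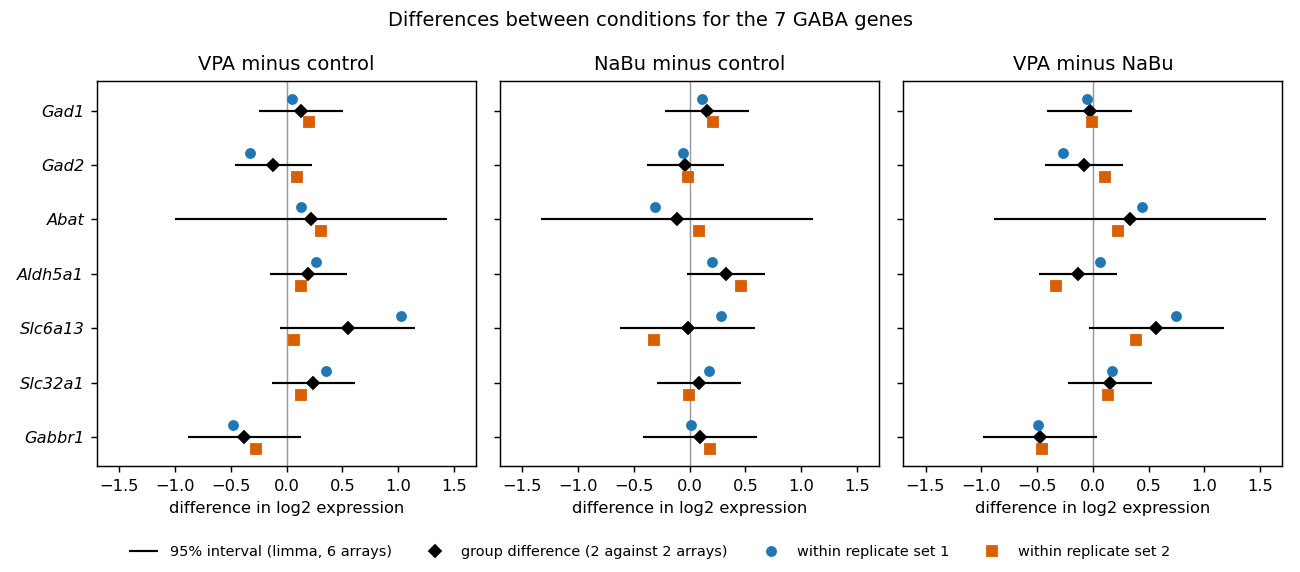
Differences in log2 expression (horizontal axis) for the 7 members in VPA against control, NaBu against control and VPA against NaBu, with diamonds for the group difference, lines for its 95% interval in limma without a block, circles for set 1 and squares for set 2. All 21 intervals include 0, and the widest are those of Abat.

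Genes that surround the members in the pathway were read from 6 lists of known genes. The GABA-A receptor subunits form the chloride channel that GABA opens, and 16 of 19 written symbols had a probeset of their own. With VPA 12 of 16 lay above 0 and 9 in both sets, beside 53.0% and 32.0% of all genes, with a median of 0.10. At an unadjusted p under 0.05 in limma 3 were higher and 0 lower (2.74% of all genes were higher). They were Gabra6, the alpha subunit of cerebellar granule cells, Gabrr1, a rho subunit of the retina, and the alpha subunit Gabra4, with a difference of 0.39. Gabrr1 had log2 values of 3.76 and 3.58 in control, 4.62 and 4.05 with VPA and 3.83 and 3.85 with NaBu cells, a VPA difference of 0.67 (95% interval 0.19 to 1.16, adjusted p 0.964 in limma). Gabra6 had a difference of 0.41 at values from 2.88 to 3.41. The means of Gabra6 (3.08) and Gabrr1 (3.95) over the 6 arrays, like those of Gabrg3 (3.80) and Gabrg1 (3.23) below, lay under the 95th percentile of the olfactory receptor genes, 4.07. So did most of the 16 subunits, with means from 2.70 (Gabrb1) to 4.55 (Gabra4), so the counts of this list rest mostly on dim probesets. With NaBu 10 of 16 lay above 0 and 6 in both sets, beside 54.3% and 29.1% of all genes, with a median of 0.05. None had an unadjusted p under 0.05 with NaBu, and the leading genes Gabrg3 and Gabrg1 had differences of 0.27 and 0.39.

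The other GABA carriers and GABA-B receptor parts had 9 of 10 symbols measured, and with VPA all 9 lay above 0, 5 of them in both sets, with a median of 0.19 and differences from 0.02 to 0.29. Pooled differences above 0 were found for 53.0% of all genes, and differences above 0 in both sets for 32.0%. Several of these probesets were dim. Kctd12b, at a mean of 3.80, lay under the olfactory receptor percentile of 4.07. Slc6a11 (4.28), Kctd16 (4.33) and Gabbr2 (4.41) lay little above it. The leading genes were Kctd16, an auxiliary subunit of the GABA-B receptor, at 0.27 (95% interval -0.03 to 0.58), and Slc36a1, a proton-coupled amino acid carrier that also moves GABA, at 0.22. None had an unadjusted p under 0.05 in limma without the block. With the replicate block 1 of the 9 was higher at that level (7.21% of all genes) and 0 lower. With NaBu 5 of the 9 lay above 0 (54.3% of all genes) and the median was 0.01. There the glial GABA carrier Slc6a11 stood at -0.24 (-0.53 to 0.06) and Kctd16 at 0.17.

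Anchoring and trafficking proteins of the GABA-A receptor gave an even split with VPA, with 8 of 16 above 0 (53.0% of all genes) and a median of 0.02. Plcl1, an adaptor in receptor trafficking, had 3.82 and 3.58 in control, 4.17 and 4.10 with VPA and 3.64 and 3.68 with NaBu cells, with a mean of 3.83 under the olfactory receptor percentile of 4.07. Its VPA difference was 0.44 (95% interval 0.12 to 0.75, adjusted p 0.964 in limma). Without the block it was the 1 of 16 in this list with an unadjusted p under 0.05 in limma (4.92% of all genes). With the replicate block 3 of 16 were higher at that level (7.21% of all genes) and 0 lower. Clptm1, which holds receptors back on their way to the surface, stood at 0.26. With NaBu 10 of 16 lay above 0 (54.3% of all genes) with a median of 0.03, led by Nsf at 0.17 and Clptm1 at 0.10.

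Glutamate supply and the neighbours of the shunt had 17 of 27 genes above 0 with VPA (53.0% of all genes) and a median of 0.07. Akr7a5, an aldehyde reductase that turns succinic semialdehyde into gamma-hydroxybutyrate instead of succinate, had 6.79 and 6.46 in control, 7.23 and 6.89 with VPA and 6.68 and 6.70 with NaBu cells. Its VPA difference was 0.43, with 0.44 in set 1 and 0.43 in set 2 (95% interval 0.02 to 0.85, adjusted p 0.964 in limma). The glutamine carrier Slc38a3 stood at 0.66 (95% interval -0.23 to 1.55, and 0.33 to 0.98 with the replicate block), with an adjusted p of 0.201 in limma with the block. The largest VPA difference of this list was that of Slc1a1, 0.69 (95% interval -0.43 to 1.81, and 0.44 to 0.94 with the block). Its adjusted p with the block was also 0.201 in limma, which was the smallest value of all genes in that model. At an unadjusted p under 0.05 in limma without the block 1 of the 27 was higher and 0 lower (2.74% of all genes were higher). With the block 4 were higher and 0 lower (7.21% of all genes were higher). With NaBu 20 of 27 lay above 0 (54.3% of all genes) with a median of 0.05 and none had an unadjusted p under 0.05 in limma. The leading genes there stood lower, Sdhb, a subunit of succinate dehydrogenase, at -0.18 and the glutamate carrier Slc1a3 at -0.19.

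Chloride carriers and their regulators, which set whether GABA excites or inhibits a cell, had 8 of 11 genes above 0 with VPA (53.0% of all genes). Their median was 0.09. Car2, a carbonic anhydrase that supplies bicarbonate, stood apart from them. It gave 9.22 and 8.22 in control, 8.09 and 7.78 with VPA and 8.61 and 7.81 with NaBu cells, so it was lower in set 2 in each condition and lower with each compound in both sets. The VPA difference was -0.79 (95% interval -1.72 to 0.15, and -1.16 to -0.41 with the replicate block), with an adjusted p of 0.201 in limma with the block. Of the 11 genes 2 were higher and 1 lower at an unadjusted p under 0.05 in that model (7.21% and 6.01% of all genes). Without the block 0 were. The NaBu difference of Car2 was -0.51 (-1.45 to 0.42, and -0.89 to -0.14 with the block, adjusted p 0.994 in limma). With the block 916 of 19938 genes had an unadjusted p under 0.05 with NaBu, in either direction. Both comparisons share the control arrays. Slc12a1, the sodium, potassium and chloride carrier of the kidney, stood at 0.20 with VPA at a mean of 3.26, also under the olfactory receptor percentile of 4.07. The kinase Wnk3 stood at 0.24 with NaBu, where 9 of 11 lay above 0 (54.3% of all genes) with a median of 0.05.

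Transcription factors that specify GABA neurons had 10 of 16 genes above 0 with VPA (median 0.08) and 8 of 16 with NaBu (median -0.01). The shares of all genes were 53.0% and 54.3%. With NaBu 2 of them were lower at an unadjusted p under 0.05 in limma, as were 0.898% of all genes. These were the homeobox genes Gsx1 and Gsx2 of the ventral forebrain. Gsx1 had 5.01 and 4.77 in control, 4.94 and 5.02 with VPA and 4.48 and 4.38 with NaBu cells, a NaBu difference of -0.46 (95% interval -0.78 to -0.14, adjusted p 1.0 in limma). Gsx2 stood at -0.35 with NaBu and at -0.30 with VPA, and the zinc finger gene Sp8, at a mean of 3.88 under the olfactory receptor percentile of 4.07, at 0.25 with VPA. The lists of inhibitory neuron and neuron markers had medians of 0.20 and 0.26 with VPA and of 0.08 and 0.01 with NaBu. The median of all genes was 0.01 with each compound. Of the 8 inhibitory neuron markers 6 lay above 0 with VPA (53.0% of all genes). In both sets 4 lay above 0 and 2 below 0 (32.0% and 28.0% of all genes). Their median was 0.17 in set 1 and 0.07 in set 2. The neuron markers were split, with 6 of 10 above 0 and 4 below 0 with VPA, each in both sets (32.0% and 28.0% of all genes). Among them were Map2 at 0.69 and Stmn2 at -0.32. The log2 of the summed neuron marker signal in set 1 and set 2 was 11.25 and 11.39 in control cells. It was 10.97 and 11.24 with VPA and 11.13 and 11.26 with NaBu.

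**Figure D4:**
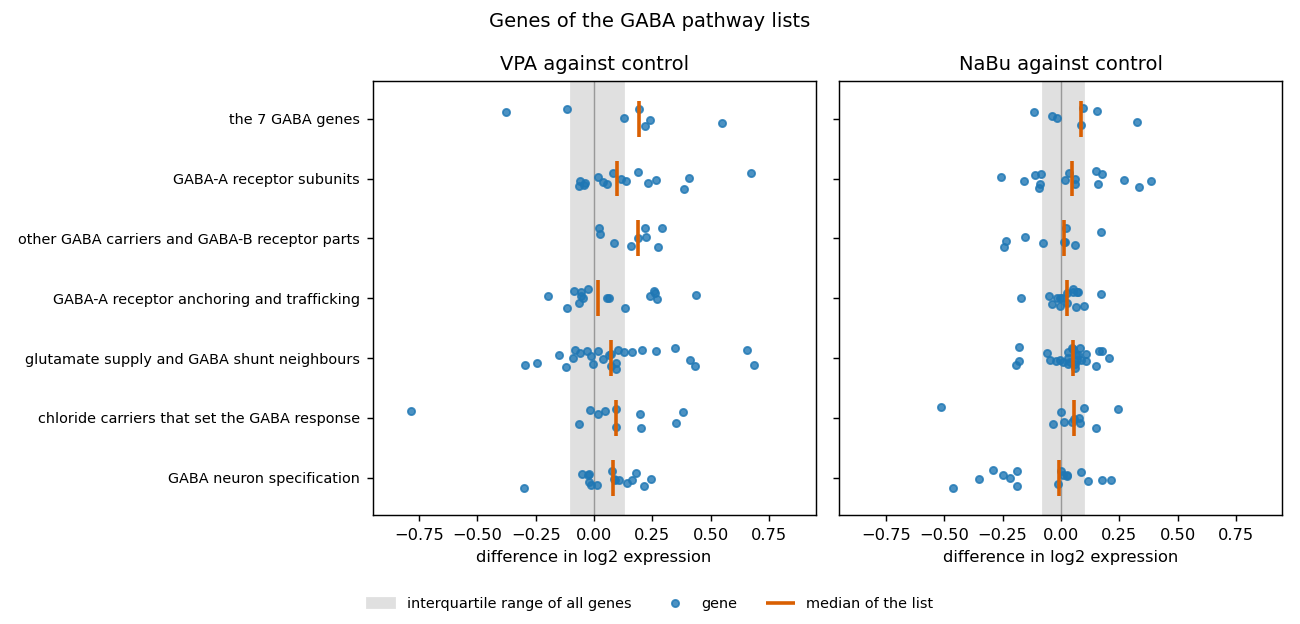
Difference in log2 expression (horizontal axis) of every measured gene of the 7 members and the 6 pathway lists, with VPA on the left and NaBu on the right, orange bars for list medians and a grey band for the interquartile range of all genes. With VPA all 9 genes of the carrier and GABA-B list lie above 0 (53.0% of all genes do), and Car2 lies far to the left at -0.79.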

How the data were processed

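RNA of 6 samples was hybridised to one-colour Affymetrix gene arrays. The values the authors deposited are log2 signals, 1 per probeset and array. The submitters' processing notes name RMA and, as its program, Affymetrix Expression Console 1.1. Neither the settings nor a genome build is stated in those notes, so coordinates are printed for the RefSeq sequences only. RMA is known to compress differences of dim probesets, and the number of arrays limits the precision.

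Of 35556 probesets, 21789 carried 1 symbol, and for each of 19938 genes the brightest of them (by its mean on all 6 arrays) was used. Each member had 1 such probeset. Tests used limma 3.58.1 (R 4.3.3) with no array left out (1 mean per group, 3 residual degrees of freedom, 2 with the replicate block, Benjamini-Hochberg over all genes). An exact permutation test of 2 against 2 arrays cannot go below 0.333 and was not used. Deviations of same-numbered arrays correlated with r = 0.558 (control and VPA), 0.693 (control and NaBu) and 0.567 (VPA and NaBu). The labels do not say what a number shares. Alternatives were the block, leaving out each array, other scalings, a filter on dim genes, probeset means and another variance prior.

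The members and gene lists were chosen with earlier results of these data known. Named genes were the members, the 2 genes of each pathway list with the largest moderated statistic for each compound, and the 3 nearest genes to the 2 most variable members, leaving out clone names, olfactory and vomeronasal receptors and small RNAs. Gabra4, Gabrb1, Gabbr2, Slc1a1 and marker genes were named after their values were seen.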

Additional observations from a re-analysis of the deposited data

Results flagged for a closer look

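For 4 pairs of member and compound the difference from control had opposite signs in the replicate sets, each being a difference between single arrays, and the difference between the sets was not tested. Gad2 with VPA gave -0.33 in set 1 and 0.10 in set 2. Abat with NaBu gave -0.31 in set 1 and 0.084 in set 2. Slc6a13 with NaBu gave 0.28 in set 1 and -0.32 in set 2. Slc32a1 with NaBu gave 0.18 in set 1 and -0.0086 in set 2.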

How the results depend on the processing

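The count of 0 genes at an adjusted p under 0.05 in limma held in each of the 3 comparisons under every alternative run, the replicate block included. The 21 member differences kept their sign with the block, median centring, quantile normalization, probeset means and the other variance prior. The filter on dim genes left 9 of them, those of Abat, Aldh5a1 and Gabbr1, with the same sign. None passed the adjusted threshold under any alternative, and the lowest adjusted p was 0.243, for Gabbr1 with VPA and the block. Leaving out 1 array turned the sign of 12 of the 21. These fits had no block, so they also carry the gap between set 1 and set 2, and the lone array left in a group was assumed to vary like the other groups. With VPA the values then ran from -0.018 to 0.27 for Gad1, from -0.27 to 0.036 for Gad2 and from -0.27 to 0.71 for Abat. With NaBu they ran from -0.098 to 0.021 for Gad2, from -0.71 to 0.48 for Abat, from -0.18 to 0.14 for Slc6a13, from -0.043 to 0.21 for Slc32a1 and from -0.11 to 0.30 for Gabbr1. Between the compounds they ran from -0.17 to 0.12 for Gad1, from -0.23 to 0.074 for Gad2, from -0.26 to 0.93 for Abat and from -0.27 to 0.0086 for Aldh5a1. With VPA, Slc6a13 ran from 0.21 to 0.89 and Gabbr1 from -0.60 to -0.16, with VPA replicate 1 or 2 left out at either end. The cause was not tested.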
